A study of Mus musculus with 16 samples.

Results

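Marrow cells lacking Tet2 were compared with wild-type (WT) marrow cells that never left low oxygen, across every gene of the deposited expression table. The comparison uses 8 of the 16 samples: 4 WT and 4 Tet2-/- libraries from mice on the C57Bl/6J strain, 3 to 4 months old, of both sexes and matched for age and sex. Marrow was taken and the CD45-positive cells enriched for the Lin-Kit+Sca1+ (LSK) fraction inside a chamber at 3% oxygen with 5% carbon dioxide, and these 8 samples stayed there, the state called physioxia here. The other 8 samples, 4 per genotype, came from the same procedure but spent 6 hours in ambient air, about 21% oxygen. They enter the choice of genes tested, the spread behind the SE and p-values, and the test of the interaction of genotype and oxygen. Otherwise they appear below only as values set beside the physioxia ones. The labels give the deletion with no restriction to a tissue, so effects within the sorted cells and effects of their surroundings cannot be told apart. The labels call the replicates matched biological ones and do not say whether animals were pooled, so the p-values measure the spread between these samples.

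Tet2 is a dioxygenase that uses oxygen, iron and 2-oxoglutarate to oxidise methylated cytosine, a step toward removal of the methyl group, and it can also recruit partners that repress inflammatory genes. Loss of Tet2 is a frequent event in clonal haematopoiesis and myeloid disease and in mice widens the stem and progenitor compartment. LSK cells hold the blood stem cells and multipotent progenitors, which live at low oxygen in the marrow, and a brief exposure to air is known to alter them, which is why cells kept throughout at 3% oxygen are of interest.

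All values are normalized counts, read counts divided by 1 scaling factor per library, and log2 differences are Tet2-/- minus WT on the scale of log2(normalized count + 1), given ± SE from limma. A gene is said to have risen or fallen where the adjusted p was under 0.05. The strand setting of the read counting is not given in the sources used here, so genes that overlap others or have antisense partners are uncertain. Symbols and positions are from GENCODE M21 on GRCm38. The table held 6288 genes, of which 6110 reached 10 normalized counts in 4 or more of the 16 libraries and were tested, and 7.77 to 15.7 M reads per physioxia library. How the genes of the table were chosen is not stated. Its rows form 4 blocks: of the 1377, 2608, 1478 and 647 tested genes in them, 7, 2172, 0 and 13 rose and 682, 0, 1356 and 13 fell, so the row order follows the direction of the difference and shares of called genes describe this table only. WT replicate 2 stood apart on the second principal component of the 8 libraries (10.9% of the variance, score −45.3 against 8.29 to 24.0 in the other WT libraries), and its 10 most abundant genes took 20.3% of its reads against 13.1% to 16.5% in the other 7. The first component (69.4%) separated the genotypes. Although the mice were matched for sex per the labels, both tested genes of the sex-linked list were higher in all Tet2-/- than in all WT libraries. The Y-linked gene Uty stood at 660, 609, 618 and 725 in WT and at 822, 989, 871 and 807 in Tet2-/- libraries (0.42 ± 0.10, adjusted p = 0.00273). Tsix, the antisense partner of Xist on the X chromosome, stood at 1.18, 0, 1.95 and 0 in WT and at 8.27, 4.32, 10.9 and 10.3 in Tet2-/- libraries. The part of sex in other results was not tested. Ptprc, which encodes CD45, and Ly6a, which encodes Sca1, were not analysed here, so the sort was checked only in part. Kit had 2029 to 7542 normalized counts in every library. Procr, a stem cell marker, was present in every library too, with values given beside the stem cell genes. Both rose in Tet2-/- libraries, as described below. Markers of mature cells that an LSK gate should leave out were present too, and their levels are given beside the lineage genes.

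Tet2 (ENSMUSG00000040943, chromosome 3, 133463679 to 133545139) stood at 782, 592, 812 and 739 in WT and at 489, 447, 463 and 530 in Tet2-/- libraries, in replicate order as in all such lists. Every Tet2-/- library lay below every WT library, yet Tet2 reads remained in all of them, at 482 ± 36.0 against 731 ± 97.4 (mean ± SD, n = 4, log2 difference −0.59 ± 0.14, adjusted p = 0.00267). A count over the whole gene also takes in exons outside a deleted part, so it checks the labels only in part. Tet1, the relative of Tet2 that oxidises the same base (chromosome 10, 62804570 to 62908996), stood at 321, 155, 290 and 313 in WT and at 748, 713, 684 and 622 in Tet2-/- libraries. The genotypes did not overlap, and Tet1 rose by 1.41 ± 0.19 on the log2 scale (adjusted p = 2.26e-05). In air its difference was 0.83. Of 13 tested Tet, Kdm and Dnmt enzymes and partners, 4 rose and 3 fell (median 0.23). Risers included Ogt, a sugar transferase that binds Tet proteins (0.56 ± 0.14). Tet3 was not analysed here.

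Across the table, limma called 2192 of 6110 genes higher (35.9%) and 2051 lower (33.6%) in Tet2-/- than in WT physioxia libraries, with a median log2 difference of 0.06 over all tested genes. In 1812 genes (29.7%) all 4 Tet2-/- libraries lay above all 4 WT libraries, and in 1710 (28%) all 4 lay below. A difference of at least 1 on the log2 scale was reached by 998 of the higher and 691 of the lower genes. If genes of the annotation that the table lacks are taken as unchanged, 1274 were higher and 1203 lower. Every count of list members below is to be read against the 35.9% and the 33.6%.

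**Figure D1:**
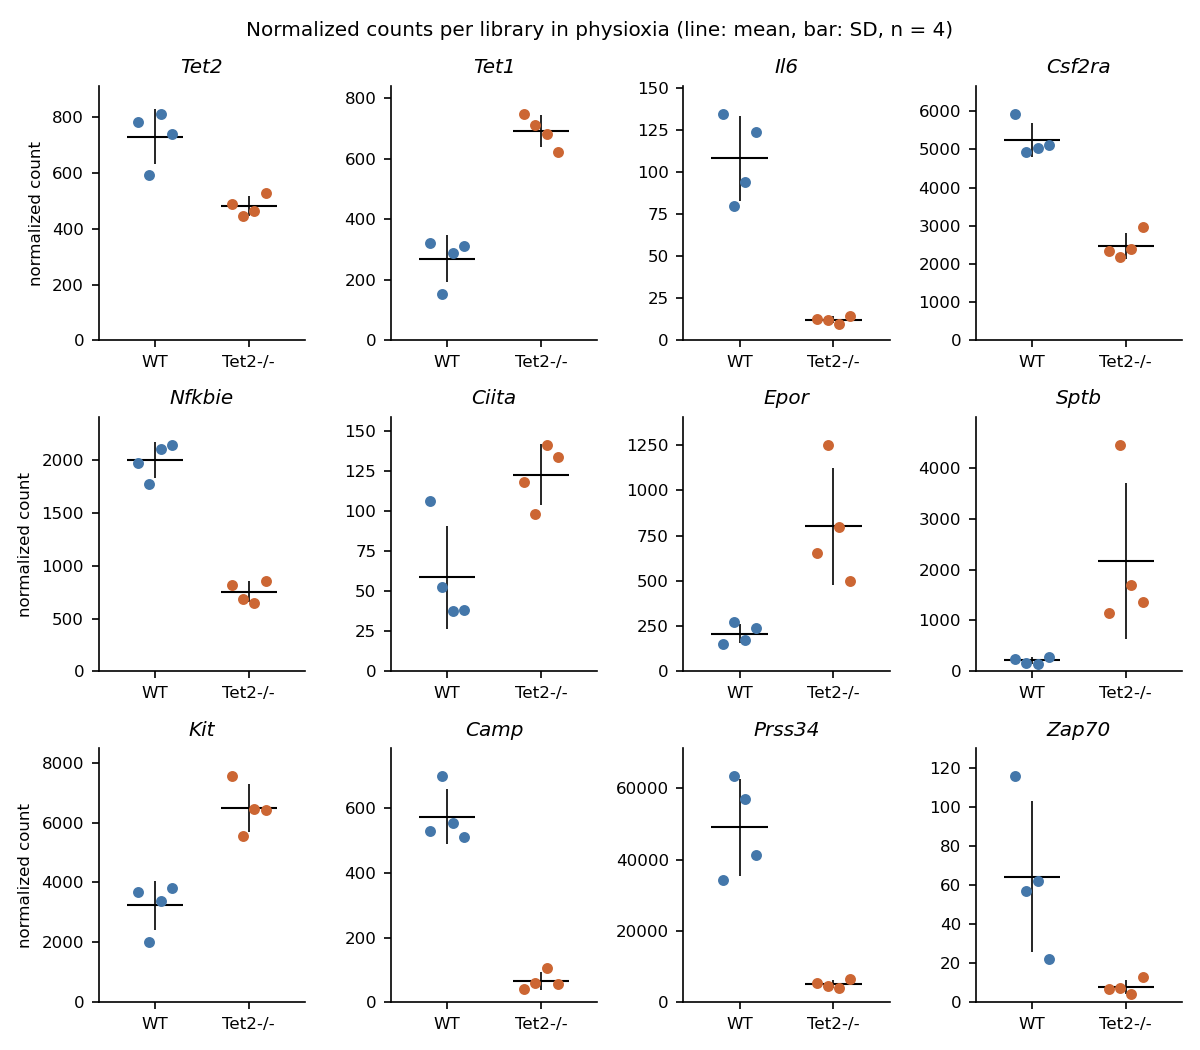
Normalized counts of 12 genes in the 4 WT and 4 Tet2-/- physioxia libraries, 1 point per library, with a line at the mean and a bar for the SD (n = 4) and linear axes from 0. The groups do not overlap except for Ciita, whose highest WT library (106) lies above its lowest Tet2-/- library (98.3), and Tet2-/- replicate 2 is the highest point for Epor and Sptb.

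Inflammatory signalling genes were mostly lower in Tet2-/- cells at 3% oxygen, and those of erythroid identity mostly higher. Nuclear factor kappa B (NF-kB) is the transcription factor family that switches on cytokine and survival genes, including its own inhibitors, by binding kB motifs, while the GATA factors drive erythroid genes through GATA motifs. The stretches below are shown because they lie before the starts of genes from both patterns, and were picked for holding a match. They are the 200 bases before the annotated start, 5′ to 3′ on the gene's strand, from RefSeq on GRCm38.p6, with every match of either motif in capitals. The kB motif was searched as GGGNNTTTCC or GGGNNTTCCC and the GATA motif as AGATAA or TGATAA, on both strands, in the 250 bases before and 50 after the start. The first 3 are of genes that fell and hold a kB match, and Il6 and Cxcl10 hold a GATA match as well: Il6 at chr5:30012914-30013113 (plus strand), Cxcl10 at chr5:92348890-92349089 (minus strand) and Nfkbia at chr12:55492648-55492847 (minus strand). The last 3 are of genes that rose and hold a GATA match and no kB match: Klf1 at chr8:84901782-84901981 (plus strand), Epor at chr9:21963577-21963776 (minus strand) and Ermap at chr4:119189996-119190195 (minus strand).
Il6: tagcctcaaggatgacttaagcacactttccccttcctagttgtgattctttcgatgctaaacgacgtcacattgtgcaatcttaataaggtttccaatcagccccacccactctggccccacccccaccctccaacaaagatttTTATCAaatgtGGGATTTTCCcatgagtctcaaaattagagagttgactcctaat
Cxcl10: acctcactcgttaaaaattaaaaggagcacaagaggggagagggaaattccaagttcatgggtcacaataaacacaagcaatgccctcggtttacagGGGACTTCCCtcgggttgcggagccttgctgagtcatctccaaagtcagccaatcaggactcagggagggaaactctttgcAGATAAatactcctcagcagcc
Nfkbia: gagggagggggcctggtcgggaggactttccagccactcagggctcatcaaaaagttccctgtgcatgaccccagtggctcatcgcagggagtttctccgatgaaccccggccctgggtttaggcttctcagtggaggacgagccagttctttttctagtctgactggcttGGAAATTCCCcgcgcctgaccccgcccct
Klf1: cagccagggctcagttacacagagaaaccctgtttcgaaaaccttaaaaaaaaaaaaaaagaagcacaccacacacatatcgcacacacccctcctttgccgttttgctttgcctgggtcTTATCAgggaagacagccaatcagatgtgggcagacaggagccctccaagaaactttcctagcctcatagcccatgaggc
Epor: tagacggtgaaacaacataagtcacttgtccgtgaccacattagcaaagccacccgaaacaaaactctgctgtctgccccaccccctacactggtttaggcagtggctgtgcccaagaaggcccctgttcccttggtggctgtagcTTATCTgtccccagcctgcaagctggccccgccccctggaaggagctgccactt
Ermap: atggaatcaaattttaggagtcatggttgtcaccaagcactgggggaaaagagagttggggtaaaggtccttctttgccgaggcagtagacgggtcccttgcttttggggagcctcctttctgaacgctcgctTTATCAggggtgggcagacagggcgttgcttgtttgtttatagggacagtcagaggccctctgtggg

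The first base of the kB match lay 44 bases before the start in Il6, 103 in Cxcl10 and 29 in Nfkbia. That of the GATA match lay 80 bases before it in Klf1, 54 in Epor, 67 in Ermap, 55 in Il6 and 22 in Cxcl10, so the matches of the motifs do not overlap and a GATA match was not particular to the genes that rose. Among tested members with a promoter in the RefSeq table, 8 of 18 NF-kB genes (44.4%) held a kB match, against 1007 of 27025 genes in all (3.73%). A GATA match was held by 8 of 16 erythroid regulators (50%), 5 of 12 red cell membrane genes (41.7%) and 6 of 17 globin, heme and iron genes (35.3%), against 21% of all genes. Within these windows 2 of the 16 erythroid regulators held a kB match and 2 of the 18 NF-kB genes a GATA match. These lists were put together from genes known for NF-kB or erythroid roles, so shares above that of all genes can follow from the choice of members. Members that changed were not compared with members that did not. A match is a run of letters, and no binding was measured.

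Among secreted signals, 14 of the 22 tested cytokine and chemokine ligands fell and 2 rose (median −0.96). Il6, an inflammatory cytokine (chromosome 5, 30013114 to 30019981), stood at 134, 80.2, 94.4 and 124 in WT and at 13.0, 11.9, 9.51 and 14.6 in Tet2-/- libraries. Cxcl10, an interferon-induced chemokine, stood at 2779, 1619, 2683 and 1972 in WT and at 610, 648, 450 and 729 in Tet2-/- libraries. Both genes were lower in all 4 Tet2-/- libraries, with log2 differences of −3.03 ± 0.28 (adjusted p = 6.33e-07) and −1.88 ± 0.21 (adjusted p = 5.08e-06). Csf1, the growth factor of macrophages (−1.50 ± 0.29), Cxcl16, a transmembrane chemokine (−1.99 ± 0.22), and the abundant chemokine Ccl9 (5629 ± 817 against 11158 ± 2326, −0.97 ± 0.165) fell as well. Ccl5, a chemokine of T cells, stood at 3744, 1651, 1355 and 714 in WT and at 392, 341, 295 and 438 in Tet2-/- libraries, so the gap was widest for WT replicates 1 and 2. Ebi3, a subunit shared by interleukins of the IL-12 family, rose by 0.62 ± 0.17 (adjusted p = 0.0049).

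Of 33 tested cytokine and chemokine receptors, 24 fell and 6 rose (median −0.67). Csf2ra, the GM-CSF receptor alpha chain, stood at 5919, 4935, 5044 and 5102 in WT and at 2335, 2181, 2403 and 2971 in Tet2-/- libraries (−1.09 ± 0.11, adjusted p = 1.28e-06). The interferon receptor chains Ifngr2 (−1.17 ± 0.13) and Ifnar2 (−0.63 ± 0.09), the interleukin-5 receptor Il5ra (−1.82 ± 0.21) and the decoy interleukin-1 receptor Il1r2 (−3.37 ± 0.34) fell. Epor, the erythropoietin receptor (chromosome 9, 21958897 to 21963506), stood at 153, 270, 175 and 237 in WT and at 656, 1248, 799 and 500 in Tet2-/- libraries (1.89 ± 0.32, adjusted p = 0.00019). Kit, the stem cell factor receptor, stood at 3695, 2029, 3382 and 3827 in WT and at 7542, 5566, 6436 and 6415 in Tet2-/- libraries (1.04 ± 0.18, adjusted p = 0.000242). Epor and Kit were each above every WT library in all 4 Tet2-/- libraries.

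Downstream of these receptors, 3 of the 10 tested JAK-STAT genes rose and 1 fell (median 0.29). The share that rose was near the 35.9% of all genes, and the share that fell was below the 33.6%. Socs3, the feedback inhibitor of gp130 signalling, rose by 0.63 ± 0.16 (1809 ± 148 against 1205 ± 337, adjusted p = 0.00442), while Cish, a feedback inhibitor induced by STAT5, fell by 0.97 ± 0.22 on the log2 scale with overlapping groups (adjusted p = 0.00171). Stat5a (0.47 ± 0.13) and Jak3 (0.75 ± 0.24) were the other 2 that rose. Jak3 did not pass by edgeR (adjusted p = 0.0692). Jak2 and Stat3 were not analysed here.

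NF-kB genes moved in 1 direction: 20 of 27 tested fell, 0 rose (median −0.99), and in 17 all 4 Tet2-/- libraries lay below all WT libraries. The inhibitors Nfkbie, Nfkbib and Nfkbia hold NF-kB in the cytoplasm. Nfkbie (chromosome 17, 45555703 to 45563169) stood at 1974, 1770, 2106 and 2137 in WT and at 813, 685, 651 and 856 in Tet2-/- libraries (−1.42 ± 0.14, adjusted p = 1.52e-06). Nfkbib fell by 0.88 ± 0.08 on the log2 scale (adjusted p = 5.09e-07). Nfkbia, chosen for its kB match after its values were seen, stood at 23816 ± 6249 in Tet2-/- and 50505 ± 5008 in WT libraries (−1.12 ± 0.16, adjusted p = 4.58e-05). Survival and adaptor genes of the pathway fell alike, with Birc3, an inhibitor of apoptosis, at −1.36 ± 0.16, Traf1, a TNF receptor adaptor, at −2.01 ± 0.26 and the kinase Map3k8 at −1.50 ± 0.20. Vcam1, an adhesion molecule induced by NF-kB, fell by 1.57 ± 0.15 on the log2 scale.

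Interferon response genes moved both ways: of 32 tested, 19 fell and 6 rose (median −0.72). Rsad2, an antiviral enzyme, stood at 2223, 980, 1903 and 1263 in WT and at 161, 224, 151 and 241 in Tet2-/- libraries (−2.99 ± 0.28, adjusted p = 7.24e-07), and Bst2, which tethers virus particles, fell by 0.93 ± 0.12 on the log2 scale. The guanylate-binding protein Gbp7 (1.16 ± 0.12), the immunity-related GTPase Iigp1 (1.92 ± 0.33) and the RNA sensor kinase Eif2ak2 (1.11 ± 0.19) rose, each without overlap. Without WT replicates 1 and 2 together, 11 interferon genes fell. Among 8 tested genes of antigen presentation by MHC class II, 7 fell and 1 rose. Lgmn, a lysosomal protease, stood at 724, 796, 435 and 324 in WT and at 144, 121, 95.1 and 169 in Tet2-/- libraries (−2.04 ± 0.28, adjusted p = 2.77e-05). Ctss (−1.28 ± 0.26) and the costimulatory genes Cd86 (−1.43 ± 0.33) and Cd40 (−2.76 ± 0.64) fell, the last 2 with overlapping groups, and Ciita, the master regulator of MHC class II, rose by 1.17 ± 0.33 (adjusted p = 0.0063). WT replicates 1 and 2 were the highest for these genes other than Ciita, as they were for dendritic cell markers below.

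Immediate early genes, which respond to stimulation within minutes, went the other way from the NF-kB genes: 14 of 30 tested rose and 5 fell (median 0.59). Btg2, an antiproliferative gene, stood at 5562, 3840, 3470 and 4179 in WT and at 13436, 13492, 13203 and 10469 in Tet2-/- libraries (1.58 ± 0.13, adjusted p = 2.06e-07). Nfil3, a basic leucine zipper factor, fell by 1.87 ± 0.29 on the log2 scale (adjusted p = 9.64e-05). If genes that the table lacks are taken as unchanged, 8 rose.

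**Figure D2:**
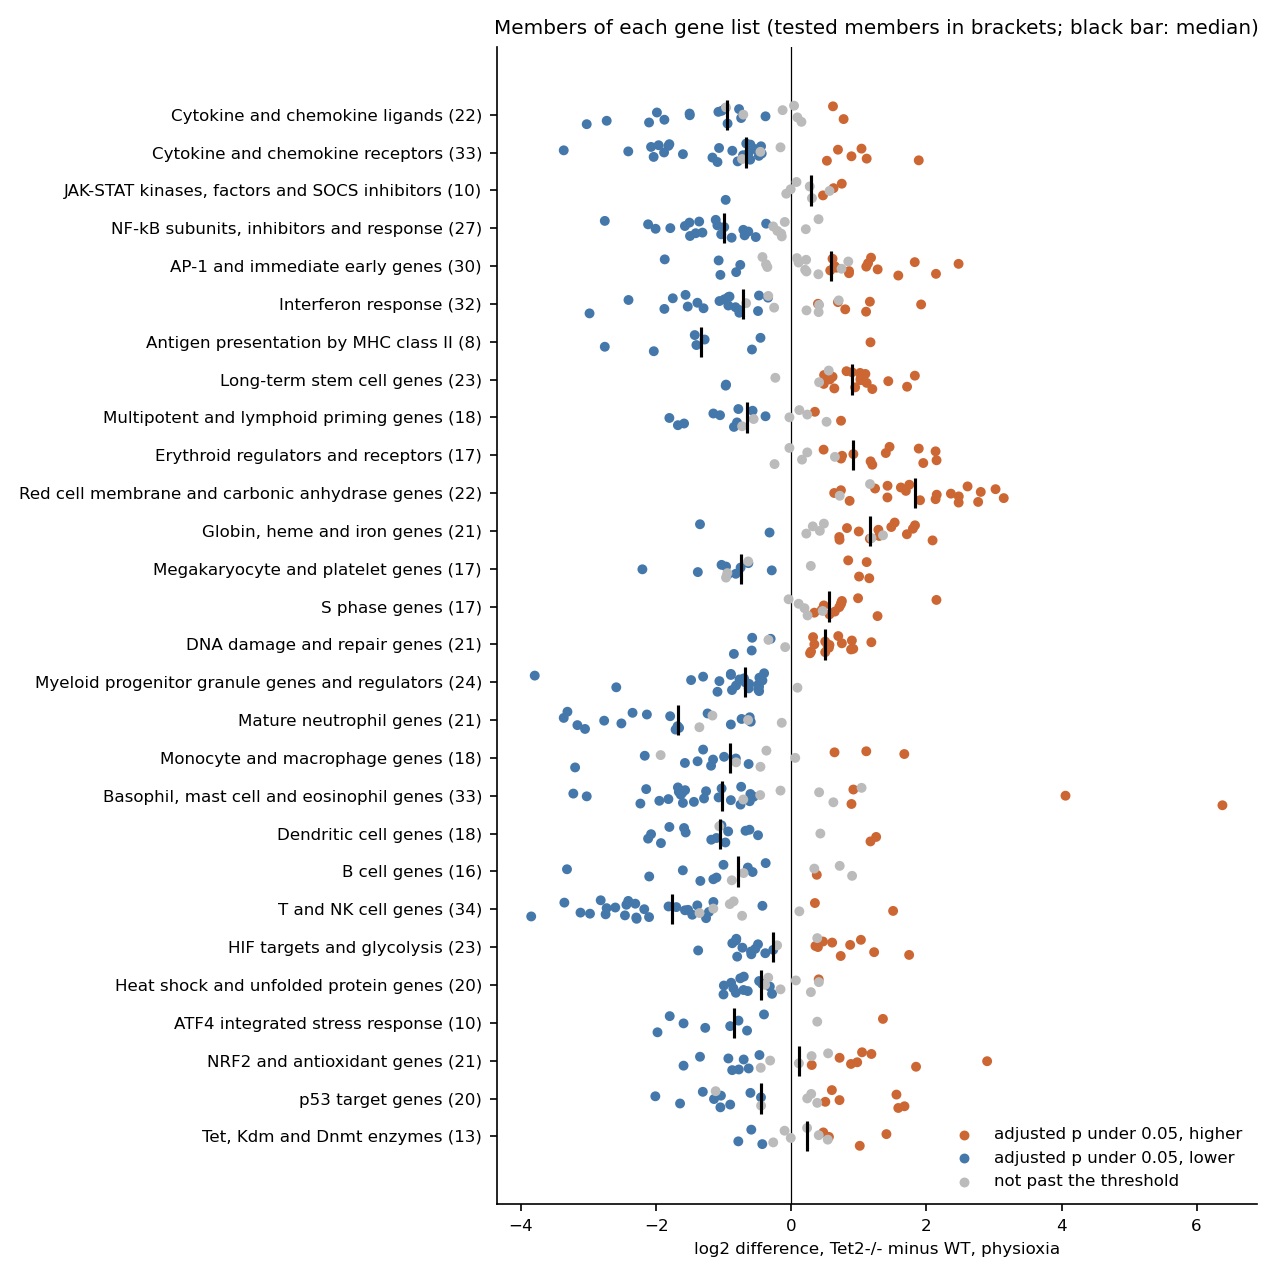
Log2 difference (Tet2-/- minus WT, physioxia) of each tested member of 28 gene lists, 1 point per gene, orange where it rose, blue where it fell and grey where it did not pass, with a black bar at the list's median. Red cell membrane genes (median 1.83) lie to the right of 0 and T and NK cell genes (median −1.76), neutrophil genes (median −1.68) and NF-kB genes (median −0.99) mostly to the left.

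Genes of long-term stem cells were higher as a group in Tet2-/- physioxia libraries, with 18 of 23 tested rising and 2 falling (median 0.90). Gfi1b, a repressor needed in stem, erythroid and megakaryocytic cells, stood at 851, 1187, 1436 and 1429 in WT and at 2472, 3397, 2899 and 2372 in Tet2-/- libraries (1.20 ± 0.18, adjusted p = 7.55e-05). Mllt3, a regulator of stem cell maintenance (1.02 ± 0.19), Mycn (1.02 ± 0.19) and Pdzk1ip1 (0.94 ± 0.18) rose without overlap. Procr, the stem cell marker EPCR, stood at 254, 208, 273 and 179 in WT and at 408, 273, 338 and 377 in Tet2-/- libraries (0.61 ± 0.17, adjusted p = 0.0053), with the groups overlapping at 273. Cd9, a tetraspanin of stem cells and megakaryocytes, fell (2048 ± 320 against 4064 ± 1119, −0.96 ± 0.18), as did Cish. Cdkn1c, a quiescence gene, was at 24.8, 90.4, 19.5 and 13.7 in WT and at 26.0, 15.1, 21.7 and 36.1 in Tet2-/- libraries and did not pass (−0.24 ± 0.62, adjusted p = 0.743). Its sign rests on WT replicate 2, without which the difference was 0.32. Of 18 tested genes of multipotent and lymphoid priming, 10 fell and 2 rose (median −0.65), Bcl11a among the risers (0.74).

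Erythroid genes were higher in Tet2-/- physioxia libraries from regulators to the membrane skeleton. Among 17 tested erythroid regulators and receptors, 12 rose and 0 fell (median 0.92). Klf1, the master regulator of red cell genes, stood at 1209, 2672, 1005 and 1244 in WT and at 4811, 11184, 6492 and 4502 in Tet2-/- libraries. Sox6, a partner in globin control, stood at 300, 462, 384 and 321 in WT and at 849, 1458, 897 and 749 in Tet2-/- libraries. Neither gene overlapped between genotypes, and replicate 2 was the highest library of each group for both. Gata1 rose by 0.92 ± 0.26 (adjusted p = 0.0067), Tfr2, a transferrin receptor, by 0.75 ± 0.15 and Smim1, which carries the Vel blood group in people, by 1.95 ± 0.41.

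Red cell membrane genes rose in 20 of 22 cases and fell in 0 (median 1.83), and in 21 all 4 Tet2-/- libraries lay above all WT libraries. Sptb, which encodes beta spectrin (chromosome 12, 76580488 to 76710547), stood at 252, 174, 151 and 285 in WT and at 1152, 4440, 1695 and 1361 in Tet2-/- libraries (3.15 ± 0.51, adjusted p = 0.000141). Ank1, the ankyrin that anchors spectrin (2.61 ± 0.45), Add2, an adducin (2.36 ± 0.43), and Ermap, an erythroid membrane protein (2.48 ± 0.36), rose as well. Car2, a carbonic anhydrase and among the most abundant of the list, stood at 22588, 41016, 22352 and 29115 in WT and at 74180, 144101, 92404 and 67350 in Tet2-/- libraries (1.70 ± 0.27). Of 21 globin, heme and iron genes, 13 rose and 2 fell (median 1.16). Steap3, an endosomal iron reductase, stood at 657 ± 140 in WT and 2888 ± 1076 in Tet2-/- libraries (2.09 ± 0.27). Alad and Fech, enzymes of heme synthesis, rose by 1.80 ± 0.36 and 1.16 ± 0.26, and Hmox1, which breaks heme down, fell by 1.35 ± 0.30 on the log2 scale.

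Tet2-/- replicate 2 held the highest erythroid levels, and this touches the counts. The mean log2 level of the red cell membrane list was 9.0, 9.67, 8.87 and 9.36 in WT and 10.60, 12.10, 11.10 and 10.57 in Tet2-/- libraries. Without Tet2-/- replicate 2, 19 of 22 red cell membrane genes and 12 of 17 erythroid regulators rose, while 8 of 21 globin, heme and iron genes did. In bulk RNA, more cells of a type and more RNA per cell cannot be told apart, here or for the lineages below.

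S phase genes rose in 12 of 17 cases and fell in 0 (median 0.57). Ccne1, which encodes cyclin E, stood at 537, 1183, 353 and 266 in WT and at 1459, 3708, 2563 and 1678 in Tet2-/- libraries (2.15 ± 0.52, adjusted p = 0.0026). E2f8, a repressor of the E2F family (1.28 ± 0.26), Rrm1, a subunit of ribonucleotide reductase (0.71 ± 0.18), and the nuclease gene Exo1 (0.73 ± 0.15) rose without overlap. The list's mean log2 level was highest in Tet2-/- replicate 2 (11.62, against 11.06 to 11.35 in the other 3 and 10.50 to 10.85 in WT), the library with the highest erythroid levels, and 9 genes rose without it. The part of the erythroid level in the S phase difference was not tested. Other cell cycle lists did not move alike. Of 23 tested G2 and M phase genes, 8 rose and 7 fell (median −0.04). Of 14 cell cycle inhibitors and cyclins, 5 rose and 4 fell (median 0.32). Replication-dependent histone genes mostly fell, with 13 of 22 falling and 5 rising (median −0.71). DNA damage and repair genes rose in 15 of 21 cases and fell in 4 (median 0.50). Wrn, a helicase, stood at 1177, 1225, 1450 and 1594 in WT and at 2632, 4118, 3213 and 2565 in Tet2-/- libraries (1.19 ± 0.17, adjusted p = 3.98e-05). Xrcc5, the larger Ku subunit of end joining, rose by 0.89 ± 0.16, whereas Xrcc6, the other Ku subunit, fell by 0.58 ± 0.12 on the log2 scale, both without overlap. Fancc, of the Fanconi core complex (−0.85 ± 0.11), and Ogg1, which removes oxidised guanine (−0.59 ± 0.18), fell too. Without WT replicates 1 and 2 together, 9 repair genes rose.

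**Figure D3:**
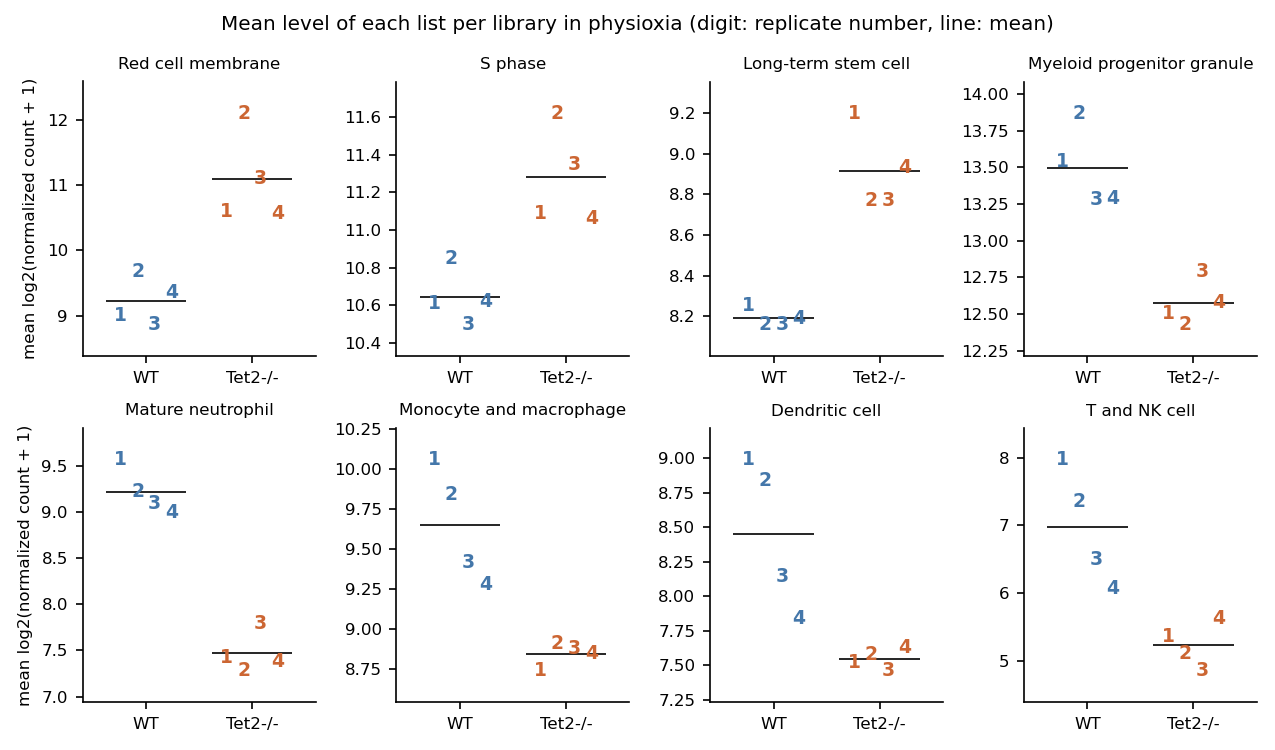
Mean of log2(normalized count + 1) over the tested members of 8 lists in each physioxia library, drawn as the replicate number, with a line at the group mean. Axes do not start at 0 and differ between panels. Tet2-/- replicate 2 is highest for red cell membrane (12.10) and S phase genes (11.62), and WT replicates 1 and 2 are highest for T and NK cell (7.97 and 7.35), dendritic cell (8.99 and 8.84) and monocyte genes (10.06 and 9.84).

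Myeloid genes were lower in Tet2-/- physioxia libraries, from progenitors to mature cells. Of 24 tested granule genes and regulators of myeloid progenitors, 23 fell and 0 rose (median −0.69). Spi1, which encodes the factor PU.1, stood at 13806, 12507, 16277 and 15256 in WT and at 9358, 7510, 8396 and 10435 in Tet2-/- libraries (−0.70 ± 0.12, adjusted p = 0.000159). Fcnb, a ficolin of granules, stood at 1890, 1979, 552 and 888 in WT and at 62.6, 65.9, 212 and 53.3 in Tet2-/- libraries (−3.80 ± 0.50). Fcgr3, an Fc receptor, fell by 1.48 ± 0.16 on the log2 scale. After quantile normalization 14 of the 24 fell, and without WT replicates 1 and 2 together 15 did. Cebpa, Mpo, Runx1, Gata2 and Meis1 were not analysed here.

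Mature neutrophil genes fell in 17 of 21 cases and rose in 0 (median −1.68). Camp, an antimicrobial peptide of secondary granules (chromosome 9, 109847379 to 109849617), stood at 529, 698, 554 and 512 in WT and at 41.3, 59.4, 107 and 57.6 in Tet2-/- libraries (−3.17 ± 0.40, adjusted p = 1.46e-05). Ngp, another granule protein, stood at 5727, 4642, 2279 and 2320 in WT and at 465, 510, 606 and 449 in Tet2-/- libraries (−2.77 ± 0.39). Lcn2 (−1.66 ± 0.26) and the receptor Clec4e (−1.71 ± 0.15) fell, and none of these 4 overlapped between genotypes. The list's mean log2 level was 9.0 to 9.57 in WT and 7.28 to 7.79 in Tet2-/- libraries, and 16 to 19 members fell with any 1 library left out.

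Basophil, mast cell and eosinophil genes fell in 23 of 33 cases and rose in 4 (median −1.03). Prss34, a basophil protease (chromosome 17, 25298394 to 25300165), stood at 34346, 63310, 56954 and 41280 in WT and at 5408, 4648, 3976 and 6664 in Tet2-/- libraries (−3.23 ± 0.27, adjusted p = 2.53e-07). Mcpt8, another basophil protease (−1.95 ± 0.17), and the receptor Cd200r3 (−2.23 ± 0.21) fell without overlap. Tpsab1, a mast cell tryptase, had 0, 2.77, 0 and 0 in WT and 17.7, 78.9, 5.44 and 29.2 in Tet2-/- libraries. Monocyte and macrophage genes fell in 10 of 18 cases and rose in 3 (median −0.91). Acod1, which makes itaconate, stood at 257, 178, 266 and 160 in WT and at 28.4, 25.9, 13.6 and 23.2 in Tet2-/- libraries (−3.20 ± 0.30). Ly86, a partner of a Toll-like receptor homologue, fell by 2.17 ± 0.21 on the log2 scale, and Slc40a1, the iron exporter of macrophages and erythroid cells, rose by 1.67 ± 0.37. Megakaryocyte and platelet genes were mixed, with 9 of 17 falling and 4 rising (median −0.75): Selp, which encodes P-selectin, rose by 1.16 ± 0.21 and F2rl2, a thrombin receptor, fell by 2.20 ± 0.50 on the log2 scale.

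Lymphoid and dendritic cell genes were lower in Tet2-/- libraries and uneven among the WT ones. T and NK cell genes fell in 26 of 34 cases and rose in 2 (median −1.76). Zap70, a T cell receptor kinase, stood at 116, 57.2, 62.3 and 22.2 in WT and at 7.09, 7.56, 4.08 and 12.9 in Tet2-/- libraries (−2.75 ± 0.54, adjusted p = 0.000623). Skap1, a T cell adaptor (−2.29 ± 0.36), and the factor Tcf7 (−1.70 ± 0.33) fell, and Cd4 rose from 25.9 ± 8.40 to 76.8 ± 32.9 (1.51 ± 0.35). The list's mean log2 level was 7.97, 7.35, 6.50 and 6.06 in WT and 4.85 to 5.62 in Tet2-/- libraries, and without WT replicates 1 and 2 together 15 members fell. Dendritic cell genes fell in 14 of 18 cases and rose in 2 (median −1.05), with Clec10a (−1.93 ± 0.23) and Ccr7 (−2.08 ± 0.46) falling and Xcr1 rising (1.26 ± 0.37). Their mean log2 level was 8.99, 8.84, 8.14 and 7.84 in WT and 7.46 to 7.63 in Tet2-/- libraries, and 5 members fell without WT replicates 1 and 2. B cell genes fell in 10 of 16 cases and rose in 1 (median −0.79). Ighm, the immunoglobulin M constant region, stood at 20128, 22207, 18286 and 19376 in WT and at 8639, 6316, 7933 and 8759 in Tet2-/- libraries (−1.35 ± 0.14, adjusted p = 2.09e-06). Of 97 tested immunoglobulin variable segments, 48 fell and 23 rose (median −1.84). Their mean log2 level was low, at 4.31 to 5.03 in WT and 2.98 to 3.81 in Tet2-/- libraries, and 39 to 47 fell with any 1 library left out. A near-identical copy, as described below, was found for 419 of 6110 tested genes with antigen receptor segments and 361 of 6001 without them. Values of single segments are therefore uncertain. Whether the levels of mature cell markers account for any of the falls among cytokine, receptor, interferon or MHC class II genes was not tested.

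Genes tied to oxygen and glucose split by member. Of 23 tested HIF targets and glycolysis genes, 12 fell and 9 rose (median −0.27). Hif1a, the oxygen-sensitive factor itself, stood at 3078, 2139, 3994 and 3908 in WT and at 2032, 1539, 1750 and 1967 in Tet2-/- libraries (−0.81 ± 0.16, adjusted p = 0.00071). The glucose transporter gene Slc2a1 stood at 1478, 1318, 1747 and 1871 in WT and at 1419, 851, 754 and 1355 in Tet2-/- libraries (−0.59 ± 0.20, adjusted p = 0.0181). These groups overlapped, and the call was lost without Tet2-/- replicate 2, Tet2-/- replicate 3 or WT replicate 4 (−0.49, −0.43 and −0.51). Pdk1 (0.47 ± 0.13) and Pdk2 (0.87 ± 0.14), kinases that hold pyruvate back from the mitochondria, rose, as did the muscle-type phosphofructokinase Pfkm (1.23 ± 0.20) and the carbonic anhydrase Car12 (1.75 ± 0.31), while the hexokinase Hk3 fell by 0.82 ± 0.14 on the log2 scale.

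Genes of the integrated stress response and of protein folding mostly fell. Of 10 tested targets of ATF4, the factor of the integrated stress response, 8 fell and 1 rose (median −0.84). Trib3, a pseudokinase that feeds back on ATF4, stood at 897, 1063, 1287 and 1606 in WT and at 474, 218, 194 and 401 in Tet2-/- libraries (−1.98 ± 0.27, adjusted p = 2.84e-05). Atf4 itself stood at 6620 ± 308 in WT and 3856 ± 279 in Tet2-/- libraries (−0.78 ± 0.11), and Ddit3, which encodes CHOP (−1.27 ± 0.20), and Chac1 (−1.80 ± 0.31) fell. Asns, asparagine synthetase, rose by 1.36 ± 0.28. Heat shock and unfolded protein genes fell in 13 of 20 cases and rose in 1 (median −0.45), including Hspa8, a constitutive chaperone (−0.82 ± 0.21), Herpud1 (−1.0 ± 0.22), Serp1 (−0.71 ± 0.12) and Xbp1 (−1.0 ± 0.14), and 7 fell after quantile normalization. Of 21 NRF2 and antioxidant genes, 8 rose and 8 fell: Nfe2l2, which encodes NRF2, fell by 0.88 ± 0.09 on the log2 scale, and Gsta4, a glutathione transferase, rose by 1.19 ± 0.22. Among 20 p53 target genes, 9 fell and 6 rose (median −0.45), with Pmaip1, the death gene NOXA, at 4045 ± 1306 against 15807 ± 2315 (−2.01 ± 0.24) and the death receptor Fas at −1.65 ± 0.22, while Zmat3 (1.56 ± 0.38) and Phlda3 (1.68 ± 0.39) rose.

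Some broad families outside these programmes rose more often than they fell. Of 125 tested solute carrier transporters, 61 rose and 29 fell (median 0.47), and of 155 Zfp zinc finger genes 80 rose and 32 fell (median 0.54). Of 39 pseudogenes named as such by their symbol, 25 rose and 10 fell (median 1.30), with per-library mean log2 levels of 4.88 to 5.17 in WT and 6.45 to 6.73 in Tet2-/- libraries.

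The genes with the largest differences included several that were nearly silent in 1 genotype. Some belong to the families above, such as Zfp125 and the pseudogenes, and others to no list. Tmem87a, a membrane protein of the Golgi (chromosome 2, 120355312 to 120404113), stood at 176, 137, 131 and 146 in WT and at 2978, 2841, 2770 and 2708 in Tet2-/- libraries (4.26 ± 0.13, adjusted p = 6.48e-13). Rbm45, an RNA-binding protein, rose by 4.39 ± 0.21 and Ttll11, a tubulin-modifying enzyme, by 4.79 ± 0.44. Gbp2b, a GTPase induced by interferon (chromosome 3, 142594847 to 142619179), drew 1779 reads from the 4 Tet2-/- and 2 from the 4 WT libraries, a ratio of summed reads, scaled by library, of 1001 with a 95% counting interval of 277 to 8272. Kcnip3, a calcium-binding channel partner (chromosome 2, 127456498 to 127522094), stood at 1005, 1149, 1195 and 1438 in WT and at 55.5, 44.3, 48.9 and 49.9 in Tet2-/- libraries (−4.56 ± 0.28, adjusted p = 5.23e-09). The growth factor gene Fgf3 (−7.06 ± 0.51), Eps8l1, an actin regulator (−5.0 ± 0.46), Tnfaip6, a matrix protein induced by inflammation (−4.42 ± 0.39), and C5ar1, the complement C5a receptor (−4.37 ± 0.42), fell. Zfp125 had 3 reads in Tet2-/- and 570 in WT libraries, a ratio of 169 in favour of WT (interval 57.5 to 821). Gnb1, a G protein beta subunit with no near-identical copy found, stood at 6058, 8788, 7414 and 7785 in WT and at 1701, 1781, 1818 and 1437 in Tet2-/- libraries (−2.15 ± 0.13). These intervals cover counting error only.

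Several of the genes with the largest rises have a near-identical copy elsewhere, so that a read may fit both. A copy of at least 95% identity over at least 50% of the longest transcript and 200 bases was found for 361 of 6001 tested genes outside the antigen receptor segments (6.02%). It was found for 45 of the 125 such genes that rose by at least 3 on the log2 scale (36%) and 7 of the 64 that fell by as much (10.9%). Of 401 near-identical pairs with both genes tested, 77 rose together, 61 fell together, and in 64 the more abundant gene fell while the lesser one rose. The reverse held in 6. A gene can enter several pairs, and the 64 pairs hold 44 different abundant genes. In 50 of the 64 the lesser gene was annotated as a pseudogene. The first coding bases of the proton pump gene Atp6v0c (chromosome 17, 24163866 to 24169702) and its processed pseudogene Atp6v0c-ps2 (chromosome 6, 37806086 to 37806550) show how alike such a pair is. They differ in these 120 bases by T111C, in capitals, counted from 1 at the first coding base of Atp6v0c, and this is the 1 difference over 465 aligned bases.
Atp6v0c: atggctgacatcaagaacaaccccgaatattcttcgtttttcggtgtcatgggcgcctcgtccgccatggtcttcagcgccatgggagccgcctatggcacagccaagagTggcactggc
Atp6v0c-ps2: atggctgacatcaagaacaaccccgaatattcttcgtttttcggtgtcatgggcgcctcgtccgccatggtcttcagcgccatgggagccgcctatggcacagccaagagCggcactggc

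Atp6v0c stood at 9068, 8637, 9040 and 9400 in WT and at 3135, 2876, 2732 and 3081 in Tet2-/- libraries (−1.61 ± 0.09, adjusted p = 1.08e-09). Atp6v0c-ps2 stood at 28.3, 39.7, 47.7 and 46.1 in WT and at 1799, 1739, 1833 and 1869 in Tet2-/- libraries (5.48 ± 0.16, adjusted p = 6.48e-13). Their sum still fell, to 4565 to 4950 from 8677 to 9446. The pair Hmga1 (chromosome 17, 27556497 to 27563674), a chromatin architectural protein, and Hmga1b (chromosome 11, 120762794 to 120764419) had no difference over 320 aligned coding bases. Their coding sequences, of 357 and 324 bases, also held 41 gap positions, and reads over the gaps were not looked at apart. Hmga1 stood at 7055, 6058, 6913 and 7264 in WT and at 3101, 2571, 2956 and 3585 in Tet2-/- libraries, and Hmga1b at 166, 126, 150 and 178 in WT and at 4282, 3717, 4023 and 4567 in Tet2-/- libraries. Their sum overlapped, at 6184 to 7441 in WT and 6288 to 8152 in Tet2-/- libraries. The counts given to the 2 genes thus differed in opposite directions, while the pair as a whole did not separate the genotypes. Reads from the aligned coding bases fit both genes, so these counts do not show that the level of either gene changed.

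Across the 64 such pairs, the sum was lower in all Tet2-/- than in all WT libraries in 42, higher in 7 and overlapping in 15. Where the copy is small, the sum mostly follows the abundant gene, which fell in every pair because the pairs were chosen so. Rps2 (mean of 47530 in WT) with Gm4968 (mean of 10.96 in WT) is such a pair. Single pairs are named here after their values were seen. The demethylation enzyme gene Tdg fell by 0.78 ± 0.11 on the log2 scale while its copy Gm9855 rose by 3.24 ± 0.14, and their sum ran from 1753 to 2164 in WT and from 1689 to 1953 in Tet2-/- libraries. Gapdh, often used as a reference gene, stood at 28466 ± 1578 in WT and 16339 ± 835 in Tet2-/- libraries. Gm13394, a pseudogene of Gapdh, stood at 44.6 ± 4.17 and 2672 ± 188. With Gm13394 added, the range was 27342 to 30833 in WT and 17600 to 19764 in Tet2-/- libraries, still without overlap. This sum leaves out other tested Gapdh copies. Among them, Gm3272 rose from a mean of 5.36 in WT to 837.5 in Tet2-/- libraries, and Gm4609 fell from 34.1 to 3.74. How reads that fit several places were counted is not given in the sources used here, so the values of each gene in such a pair, Tdg and Hmga1 included, are uncertain. Eosinophil ribonuclease genes belong here too: Ear10 (178 ± 31.9 against 1.36 ± 1.13) and the pseudogene Ear-ps2 (647 reads against 0, at least 60.7-fold higher on a floor of 3 reads per library) rose, while their relative Ear1, chosen after its value was seen, fell by 1.57 on the log2 scale.

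**Figure D4:**
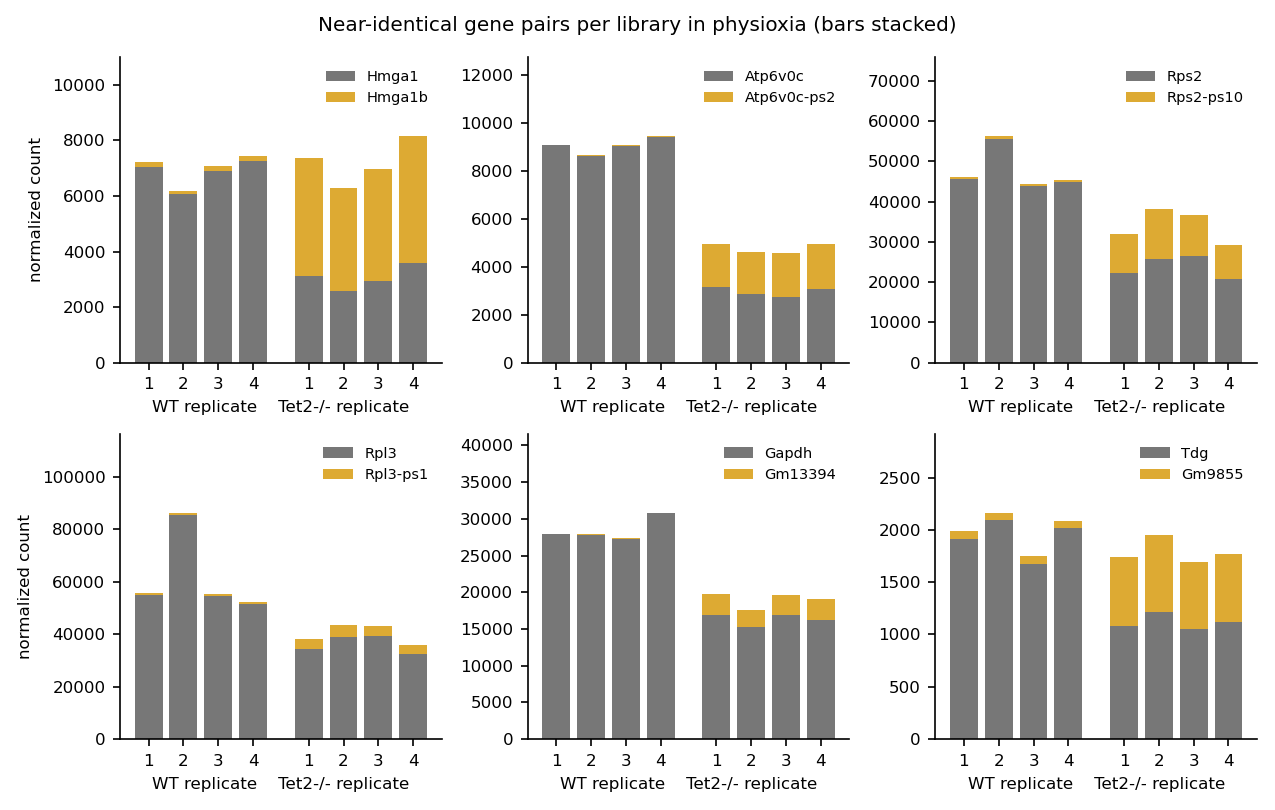
Normalized counts of 6 near-identical pairs in each physioxia library, stacked, with the more abundant gene in grey and its copy in yellow, on linear axes from 0. The yellow part is small in WT and larger in every Tet2-/- library, and the full bar overlaps between genotypes for Hmga1 with Hmga1b and for Tdg with Gm9855 and is lower in Tet2-/- libraries for Atp6v0c with Atp6v0c-ps2 and Gapdh with Gm13394.

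Large differences were more frequent near Tet2 than over the whole table, while called genes were not. Of 23 tested genes that start within 5 Mb of the Tet2 start, 12 passed in either direction (52.2%), and their median absolute log2 difference was 0.58. From 5 to 10 Mb, 9 of 14 passed (64.3%), from 10 to 20 Mb 22 of 29 (75.9%), and farther along the chromosome 127 of 193 (65.8%, median absolute difference 0.61), against 69.4% of all genes tested (median 0.63). A difference of at least 2 on the log2 scale was passed by 4 of the 23 genes within 5 Mb (17.4%) and 4 of the 14 from 5 to 10 Mb (28.6%), which is 8 of 37 within 10 Mb (21.6%). It was passed by 3 of 29 from 10 to 20 Mb (10.3%) and 11 of 193 beyond (5.7%), against 587 of all 6110 genes (9.61%). The difference between these shares was not tested. By whole chromosome, without antigen receptor segments, the share ran from 5.07% on chromosome 7 to 15.7% on chromosome 18. The 8 genes, named after their values were seen, were Gbp2b, 9.13 Mb from the Tet2 start, Ndst3, Ugt8a, Ank2, Gm43379, Gm42807 and Oaz2-ps, which rose, and Lef1, a factor of the Wnt pathway, which fell. Gm43379, Gm42807 and Oaz2-ps start close together, at 1.96, 2.02 and 2.06 Mb, so they may not be separate events.

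**Figure D5:**
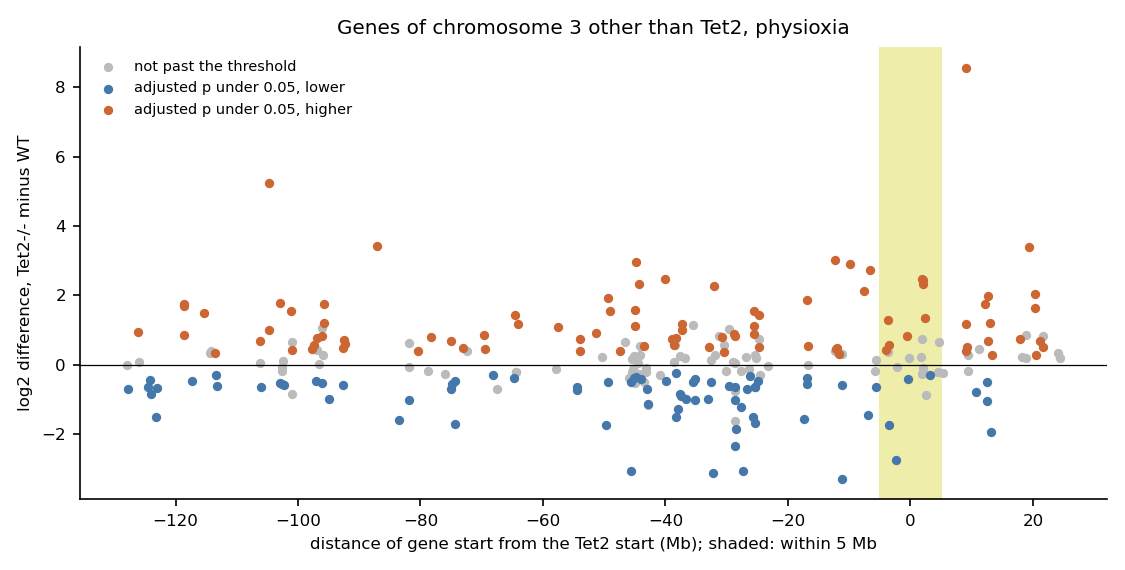
Log2 difference (Tet2-/- minus WT, physioxia) of chromosome 3 genes other than Tet2 against the distance of their start from that of Tet2 in Mb, 1 point per gene, orange where it rose, blue where it fell, grey where it did not pass. The shaded band marks 5 Mb to either side, in which 12 of 23 genes passed, and the point above 8 is Gbp2b, at 9.13 Mb.

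The same genotype difference was measured in air, with other libraries of both genotypes. There 2575 genes (42.1%) were higher and 2283 (37.4%) lower in Tet2-/- libraries. Of the 2192 genes that rose in physioxia, 1775 were also higher in air, 416 did not pass there and 1 was lower. Of the 2051 that fell, 1682 were also lower in air, 369 did not pass and 0 were higher. In the 4 blocks of rows, 0, 2144, 0 and 431 genes were higher in air and 1178, 0, 1105 and 0 lower. The row order thus follows the direction in air as well, and how the genes were chosen is not stated. Shares of like calls, of opposite calls and of interaction calls therefore describe this table only. The 1 gene with opposite calls was Spen, a repressor of Notch signalling, at 0.67 ± 0.21 in physioxia (adjusted p = 0.00995) and −0.51 in air (adjusted p = 0.0344). In the test of the difference itself, the interaction of genotype and oxygen, limma called 0 genes (0%). At an unadjusted p under 0.05 there were 546, and the smallest adjusted p was 0.552, shared by Spen (1.17 ± 0.29), Edem1, which clears misfolded proteins (−1.99 ± 0.46), and others. Edem1 was at −0.39 ± 0.33 in physioxia and 1.60 in air. Il6 (−3.03 in physioxia, −2.42 in air), Epor (1.89 and 1.90), Camp (−3.17 and −2.82), Prss34 (−3.23 and −3.14) and Zap70 (−2.75 and −1.19) had like signs at both oxygen levels. The gap for Zap70 did not pass in air (adjusted p = 0.0524), and its difference between oxygen levels was not past the test.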

How the data were processed

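RNA was sequenced with a low-input kit on paired-end Illumina runs, per the labels' protocols. The authors deposited 1 table of normalized counts (a scaled signal per gene), and the submitters' processing notes name FastQC, cutadapt, STAR, HTSeq, DESeq2 and GRCm38 without versions. These normalized counts were used as deposited. Read counts behind the deposited values of the 8 physioxia libraries were recovered from their step size, all of them whole within 0.01. Columns were matched to samples by name. Genes reaching 10 normalized counts in 4 or more libraries (178 did not) were tested with limma 3.58.1 (trend) on log2(normalized count + 1) over all 16 libraries, with Benjamini-Hochberg adjustment. Because the unit was not raw counts, edgeR 4.0.16 (quasi-likelihood, TMM) and DESeq2 1.42.0 on recovered reads served as alternatives, and the pipeline was tested on simulated data. Genes named are up to 15 per direction with the largest difference (mean of at least 50, no overlap), up to 6 per list by p, up to 3 against each list's direction, up to 6 per direction of the interaction, and a set always looked up. Members and lists were chosen with earlier results of these data known. Near-identical copies were searched with blastn on GENCODE M21 transcripts. The alternatives are described at the end, and the 8 air libraries served only for the filter, the spread, the interaction test and side-by-side values.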

Additional observations from a re-analysis of the deposited data

Results flagged for a closer look

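In 29 of 344 groups of 4 libraries, 1 library lay far from the other 3 (Dixon test, 95% critical value). Chance alone gives this in about 1 in 20 groups, and no cause was tested. WT replicate 2, the library apart on the second principal component, accounts for many of them. It was low in the mean log2 level of the Tet, Kdm and Dnmt list (9.72 against 10.19 to 10.23), and high in that of globin, heme and iron genes (10.88), NRF2 and antioxidant genes (10.08) and immunoglobulin variable segments (5.03). In normalized counts it was high for Alad (6083 against 2771 to 3187), Cdkn1c (90.38), Fcgr3 (20254), Hspa8 (158462), Iigp1 (89.46), Klf1 (2672), Ogg1 (1205), Pdzk1ip1 (549.7), Serp1 (47061) and Tpsab1 (2.767, with the other 3 at 0), and low for Spen (124.5 against 238 to 261).

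WT replicate 1 was high in the level of immediate early genes (11.74 against 11.24 to 11.28) and in Csf2ra (5919), and low in that of heat shock and unfolded protein genes (13.13 against 13.22 to 13.23). WT replicate 4 was high for Exo1 (501.9) and Gbp2b (1.707, with the other 3 at 0), and low for Pmaip1 (12341). Tet2-/- replicate 2, the library with the highest erythroid levels, was high for Ank1 (1275 against 443 to 578), Sptb (4440) and Pfkm (2566), and low for Il5ra (56.17). Tet2-/- replicate 3 was high for Fcnb (212) and Cd40 (14.95), replicate 1 for Cd86 (118.1), and replicate 4 was low for Btg2 (10469).

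Spen was called in opposite directions in physioxia and air, with a difference of 1.17 between the 2 on the log2 scale. The interaction test did not pass after adjustment (limma, adjusted p = 0.552).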

How the results depend on the processing

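The counts of higher and lower genes (2192 and 2051) ranged from 1993 to 2205 and from 1849 to 2101 with any 1 library left out, and were 2003 and 2031 by edgeR and 2119 and 2062 by DESeq2. With the annotated genes that the table lacks taken as unchanged, 1274 were higher and 1203 lower, and of the lists 8 immediate early, 7 globin, heme and iron, 7 S phase and 4 DNA repair genes rose, while 11 interferon, 4 MHC class II, 5 megakaryocyte, 14 myeloid granule, 5 dendritic cell, 6 B cell and 8 heat shock genes fell. With only protein-coding genes added this way, 8 globin, heme and iron genes rose and 9 dendritic cell genes fell. With a log2 difference of at least 1 also required, 998 rose and 691 fell. Among the lists this left 9 ligands, 12 receptors, 13 NF-kB, 9 interferon, 1 HIF, 5 lymphoid priming, 3 megakaryocyte, 6 myeloid granule, 9 dendritic cell, 1 heat shock and 4 ATF4 genes falling. It left 0 JAK-STAT, 8 immediate early, 2 Tet, Kdm and Dnmt, 10 stem cell, 4 NRF2, 2 S phase, 29 solute carrier, 39 Zfp and 1 DNA repair genes rising. After quantile normalization 14 myeloid granule and 7 heat shock genes fell. Globin, heme and iron genes that rose ran from 8 to 14 with 1 library left out, the lowest without Tet2-/- replicate 2. The following settings were chosen after seeing the data. Without both replicates numbered 2, 9 dendritic cell genes fell. Without WT replicates 1 and 2, 11 interferon, 15 myeloid granule, 5 dendritic cell and 15 T and NK cell genes fell and 9 DNA repair genes rose. Cdkn1c, not past the test, was at −0.24 (−0.56 to 0.32 with 1 library left out) and turned to 0.32 without WT replicate 2, 0.52 without both replicates numbered 2 and 0.51 without WT replicates 1 and 2. With the replicate number as a block, 2174 genes were higher and 2029 lower over 16 libraries, and 1976 and 1725 over the 8 physioxia libraries. Same-numbered libraries correlated at −0.117 to 0.116 and 1 of 4 Tet2-/- libraries correlated best with its own number, so no pairing by number was seen. With 4 libraries per group, these values cannot show that the samples were unpaired. The cause of these moves was not tested, except that a stricter threshold or added genes taken as unchanged lower counts by construction. Fewer libraries did not always lower them: without WT replicate 2, 2205 genes were higher and 2101 lower. Of 279 genes followed, 277 kept direction and call by edgeR and 278 by DESeq2. Counts of a few reads limit the silent genes to the intervals given.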
